A study of Mus musculus with 21 samples.

Results

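Tight junctions seal the space between neighbouring epithelial cells near their apical border. In the thyroid they close off the follicle lumen, where thyroglobulin is stored and thyroid hormone is made, from the tissue and blood around it. Claudins form the paracellular strands and set which ions pass, occludin and its MARVEL relatives stabilise the strands and the corners where cells meet, and zonula occludens and cingulin proteins tie the strands to actin. The genes described here, chosen by symbol, are the protein-coding claudins (Cldn) and a set of partners that includes Ocln, Marveld1 to Marveld3, Tjp1, Tjp3, F11r, Jam2, Jam3, Cgn, Cgnl1, Pard3, Pard6b and Crb3. They are 39 genes, 24 claudins and 15 others, of 45777 genes in the deposited tables.

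RNA was sequenced from thyroid glands of C57BL/6J mice whose age is not given in the sources used here. All mice had been injected with a pLIVE plasmid, which is designed to be expressed by liver cells, and libraries of every group carry a label naming hyperthyroidism induction. At 1 week the groups were TSH, given the vectors pLIVE-TSHB and pLIVE-CGA for both subunits of thyrotropin, TSH-MMI, given these vectors and methimazole (thiamazole, MMI), which blocks thyroid hormone synthesis, and Empty, given the pLIVE-Empty vector. At 4 weeks the groups were TSH, TSH-MMI, Empty-MMI, given the pLIVE-Empty vector and methimazole, and Empty. Each of the 7 groups had 3 libraries, with 32244842 to 51886245 counts per library. The labels do not say that libraries came from separate animals, so p-values measure the spread between these libraries, which may in part be technical.

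Promoters are shown for 4 claudins: Cldn3, Cldn4 and Cldn7, which had the highest levels of the family, and Cldn6, which fell under TSH at 1 week. Cldn4 (chromosome 5, 134945123 to 134946934, minus strand) and Cldn3 (134986214 to 134987476, plus strand) are neighbours, 39279 bases apart with no annotated gene between them. Cldn7 lies on chromosome 11 (69964779 to 69967886, plus strand), and Cldn6 on chromosome 17 (23679348 to 23682446, plus strand) with Cldn9 starting 137 bases beyond its end (23682584 to 23684026, minus strand), all on GRCm38.p6. The RefSeq promoters run from 250 bases before to 50 bases after an annotated start and are read 5′ to 3′ on the gene's strand, at chr17:23679115-23679414 (+) for Cldn6, chr11:69965171-69965470 (+) for the second start of Cldn7, chr5:134946885-134947184 (-) for Cldn4 and chr5:134985964-134986263 (+) for Cldn3. Capitals mark each match to the cAMP response element TGACGTCA, the AP-1-like pattern TGANTCA and the GC box GGGCGG. N in TGANTCA is any base, so not every match need be an AP-1 element. Both strands were searched (a GC box on the other strand reads CCGCCC).
Cldn6: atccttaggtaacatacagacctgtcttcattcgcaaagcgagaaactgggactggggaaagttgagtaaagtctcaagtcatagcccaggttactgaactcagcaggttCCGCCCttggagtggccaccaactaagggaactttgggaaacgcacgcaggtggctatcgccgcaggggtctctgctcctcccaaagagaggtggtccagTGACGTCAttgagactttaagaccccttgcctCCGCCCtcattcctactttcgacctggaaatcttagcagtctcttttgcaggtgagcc
Cldn7: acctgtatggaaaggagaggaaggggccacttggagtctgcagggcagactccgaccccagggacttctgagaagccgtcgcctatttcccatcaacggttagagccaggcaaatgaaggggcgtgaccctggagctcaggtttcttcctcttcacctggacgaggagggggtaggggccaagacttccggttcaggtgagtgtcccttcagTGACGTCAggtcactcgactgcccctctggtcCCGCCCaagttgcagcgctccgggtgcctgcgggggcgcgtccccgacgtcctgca
Cldn4: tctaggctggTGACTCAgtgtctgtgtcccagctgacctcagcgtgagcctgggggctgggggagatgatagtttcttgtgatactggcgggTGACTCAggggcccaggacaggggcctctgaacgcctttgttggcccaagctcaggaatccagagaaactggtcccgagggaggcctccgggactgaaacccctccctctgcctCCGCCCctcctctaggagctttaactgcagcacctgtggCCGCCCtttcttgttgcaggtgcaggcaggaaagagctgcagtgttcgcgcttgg
Cldn3: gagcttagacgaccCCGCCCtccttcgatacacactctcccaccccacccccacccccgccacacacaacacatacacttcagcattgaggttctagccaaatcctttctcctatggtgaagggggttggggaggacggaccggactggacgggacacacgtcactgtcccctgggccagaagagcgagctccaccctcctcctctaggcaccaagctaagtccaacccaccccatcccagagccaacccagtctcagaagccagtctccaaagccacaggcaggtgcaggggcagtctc
The full cAMP response element, the DNA element of the factor CREB downstream of cAMP, was found in the promoters shown for Cldn6 and Cldn7 and in no other of the 44 promoters matched for 31 of the 39 genes. Of all 32851 RefSeq promoters 1.79% hold it. The AP-1-like pattern stood 2 times in Cldn4 and 1 time each in Cldn15 and F11r, against 7.81% of all promoters, and the GC box is common, at 35.7%. The promoter of the first Cldn7 start, chr11:69964529-69964828, holds none of the 3 motifs. The second start was shown because the promoter with the most TGACGTCA matches was taken for each gene. These are matches of letters, not sites shown to be bound.

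Levels between genes were compared by the deposited FPKM, which accounts for transcript length. Cldn3 had the highest level, with a median of 141 FPKM over the 21 libraries (93.4 to 171), followed by Cldn7 at 72.3 (59.8 to 106) and Cldn4 at 68.1 (55.5 to 116), whose ranges overlapped. Together these claudins, all of which are typical of simple and glandular epithelia, made up 84% to 91.9% of the summed claudin FPKM. Cldn8, a barrier-forming claudin of kidney tubule and gut, had a median of 11.5 FPKM, and Cldn6, a claudin of embryonic epithelia, 6.28. Cldn10, a pore-forming claudin, stood at 5.69, Cldn12 at 5.1 and Cldn5, the main claudin of endothelial cells, at 4.5. Cldn9, close kin of Cldn6, was at 1.71 FPKM and Cldn1, the barrier claudin of skin, at 1.06. Medians were below 1 FPKM for Cldn15 (0.725), Cldn23 (0.625), Cldn22 (0.211), the cation pore Cldn2 (0.116) and Cldn19 (0.053).

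Among the other members the adhesion molecule F11r (JAM-A) had the highest median, 59.1 FPKM. The scaffolds Tjp3 and Tjp1 (ZO-3 and ZO-1) had 32.3 and 10, and the linkers Cgnl1 (paracingulin) and Cgn (cingulin) 20.5 and 18.7. The apical polarity protein Crb3 stood at 21.2, Pard3 at 5.05 and Pard6b at 2.51. Jam2 and Jam3 had medians of 7.42 and 5.22 FPKM. Of the MARVEL proteins, Marveld1 and Marveld3 had medians of 13.2 and 9.67 FPKM, Ocln (occludin) 5.98 and Marveld2 (tricellulin) 4.49.

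In all, 30 members passed the filter on low counts, 15 claudins and 15 others, and were tested. Cldn11, Cldn13, Cldn14, Cldn17, Cldn18 and Cldn24 had at most 14 counts in any library and were not tested. Cldn16, Cldn20 and Cldn34a had 0 counts in all 21 libraries, which allows up to 3 counts in each. Exons of Cldn3, Cldn22, Cldn19, Tjp3, Crb3 and Jam3 overlap a gene on the opposite strand, so reads could be shared there and in the close pair Cldn6 and Cldn9.

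**Figure D1:**
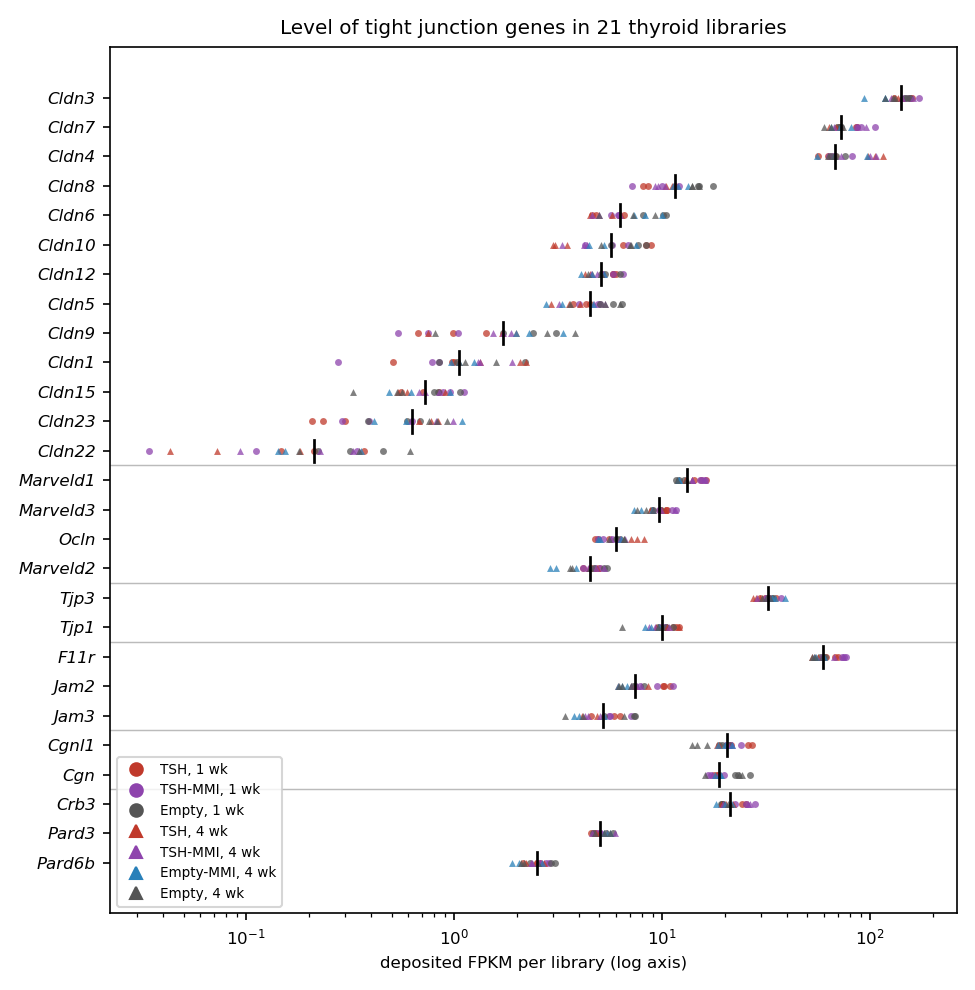
Deposited FPKM per library (log axis) for tested members with counts in every library, grouped by role; points are libraries coloured by group, circles at 1 week and triangles at 4 weeks, and black lines are medians over 21 libraries. Cldn3, Cldn7, Cldn4 and F11r stand above the other members shown, and the spread widens below about 2 FPKM.

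The labelled tissue was clear in its markers, with thyroglobulin (Tg) at 17400 to 32900 FPKM and the epithelial adhesion molecule Epcam at 117 to 190 FPKM. Transcripts of neighbouring tissue varied. Scores are mean log2 CPM of a marker list. At 1 week immature thymocyte markers scored 0.67 in 1 TSH-MMI library (replicate 2) and 3.82 in 1 Empty library (replicate 3), and elsewhere they scored below 0. At 4 weeks skeletal muscle markers scored -1.31 to 6.69 in TSH, -1.87 to 5.08 in TSH-MMI and 1.7 to 4.49 in Empty-MMI, against 7.99 to 9.2 in Empty, which did not overlap them. Parathyroid hormone (Pth) had 0 counts in TSH replicate 1 and 2113 in Empty replicate 3 at 4 weeks, against 42887 to 297474 in the other libraries of that week. Macrophage markers were all called higher in TSH and in TSH-MMI against either control, 7 of 7 in each comparison, with sums of 547 to 623 CPM in TSH, 478 to 546 in TSH-MMI and 246 to 282 in Empty at 1 week, and 450 to 518 in TSH, 401 to 484 in TSH-MMI, 231 to 248 in Empty-MMI and 201 to 238 in Empty at 4 weeks. Fibroblast markers summed to 1730 to 1960 CPM in TSH, 1360 to 1580 in TSH-MMI and 616 to 793 in Empty at 1 week. Of 6 such markers edgeR called 3 higher in TSH there, Col1a1, Col3a1 and Pdgfrb, and 2 others had changes below 0. Dcn was called lower in TSH-MMI at 1 week (-0.52, adjusted p = 0.0492) and in TSH at 4 weeks (-0.78, 0.00674), each against Empty. The sums at 4 weeks were 679 to 803 CPM in TSH and 797 to 1000 in TSH-MMI. They were 614 to 759 in Empty-MMI and 599 to 668 in Empty. The part of these cells in the member changes was not tested. Results are also given without the libraries named here where that ends a call.

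At 1 week TSH was compared with Empty, and the members that changed were mostly lower. Of 30 members tested 3 rose and 7 fell (33.3%), against 24.1% of all 16956 genes tested in either direction, 14.8% higher and 9.34% lower. The claudins called, Cldn6, Cldn8, Cldn9, Cldn5 and Cldn23, were all lower, and the median log2 fold change of the 15 claudins tested was -0.50, against 0 for all genes tested. Values per library are CPM, scaled by TMM within a week, with means ± SD over n = 3, and changes are fitted log2 fold changes with their standard error (SE).

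Cldn6 had 10.5, 7.19 and 7.61 CPM in TSH, against 16.8, 13.5 and 16.3 in Empty. It fell by 0.89 on the log2 scale (SE 0.15, adjusted p = 0.00131), and the groups did not overlap. Its neighbour Cldn9 had 2.24, 1.05 and 1.53 CPM in TSH and 3.95, 2.82 and 4.79 in Empty, again without overlap (-1.26, SE 0.33, adjusted p = 0.0162). Cldn8 had 29.7, 20.5 and 21.6 CPM in TSH and 46.9, 40.4 and 37.4 in Empty (-0.80, SE 0.20, adjusted p = 0.0196). All TSH libraries of Cldn8 lay below the lowest Empty library. Cldn23, known from gut surface epithelium, was low throughout, at 0.502 ± 0.103 CPM in TSH and 1.16 ± 0.33 in Empty (-1.21, SE 0.39, adjusted p = 0.0406). The 3 most abundant claudins were not called: the change was -0.07 for Cldn3 (adjusted p = 0.618), 0.14 for Cldn7 (0.31) and -0.21 for Cldn4 (0.22). Cldn1 was not called either (-0.72, adjusted p = 0.318).

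Markers of C cells and parathyroid were lower in the same libraries as Cldn6 and Cldn9. Of 9 C cell markers tested 1 rose and 7 fell, with scores of 4.83 to 5.14 in TSH and 5.76 to 6.11 in Empty. Neither sums nor scores of this list are read as a C cell level alone. At 4 weeks the sums were 615 CPM in TSH replicate 1 and 1380 in Empty replicate 3, both poor in Pth. The other libraries of that week had 3480 to 13400. Calca had 571 CPM in Empty replicate 3 and 769 and 635 in Empty replicates 1 and 2. TSH replicate 1 of that week scored 4.28, against 5.1 in each of TSH replicates 2 and 3. Its Calca was at 296 CPM, against 255 and 279 in those libraries. Both parathyroid markers were below 0 in fold change without a call, and summed to 895 to 1610 CPM in TSH and 1930 to 3410 in Empty. The part of either list in the lower Cldn6 and Cldn9 was not tested. At 4 weeks the libraries poorest in Pth, TSH replicate 1 and Empty replicate 3, had 1.38 and 1.42 CPM of Cldn9, against 2.31 to 6.08 in the other libraries. In whole tissue, fewer cells of a type and less RNA per cell cannot be told apart.

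**Figure D2:**
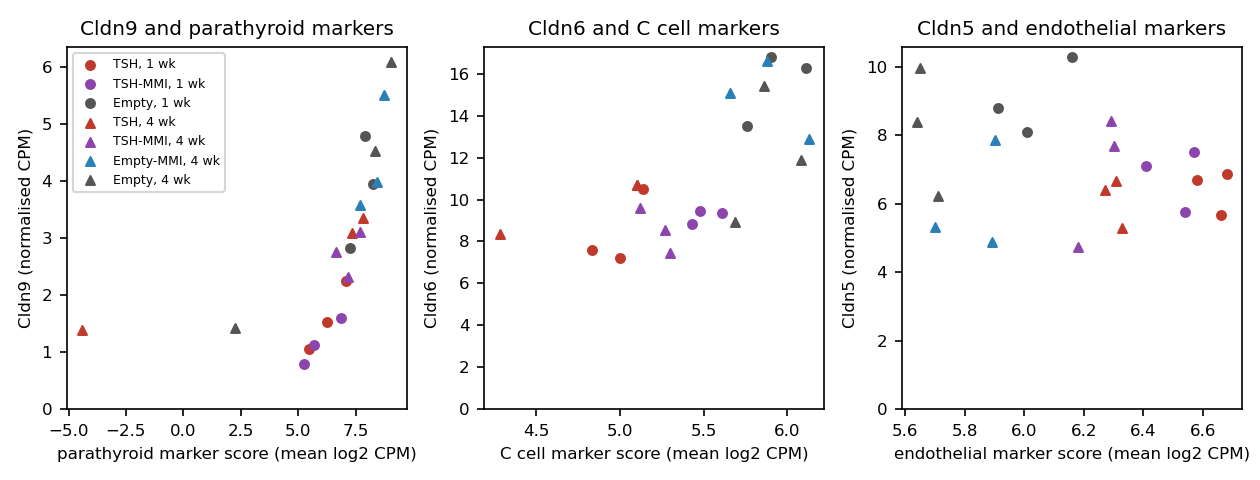
Normalised CPM of Cldn9, Cldn6 and Cldn5 in each of 21 libraries against the marker score (mean log2 CPM) of parathyroid, C cell and endothelial markers; points are libraries, coloured by group, circles at 1 week and triangles at 4 weeks. The TSH replicate 1 library of 4 weeks, at a parathyroid score of -4.41, and Empty replicate 3, at 2.23, have low Cldn9, and the TSH and TSH-MMI libraries lie to the right of the Empty ones on the endothelial score of their week.

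The endothelial claudin fell while most endothelial markers rose. Cldn5 had 6.68, 5.66 and 6.86 CPM in TSH and 8.09, 10.3 and 8.81 in Empty, so it fell (-0.50, SE 0.15, adjusted p = 0.0282), while 12 of 14 endothelial markers rose, with a median log2 fold change of 0.58. Their summed level was 2060 to 2220 CPM in TSH and 1260 to 1560 in Empty. Jam2 (JAM-B), an adhesion molecule of endothelial and other junctions, had 53.9, 51.7 and 56.4 CPM in TSH and 39.9, 44.7 and 38.1 in Empty. It rose by 0.40 (SE 0.11, adjusted p = 0.0183), with no overlap. Esam, an endothelial junction molecule of the same immunoglobulin family, rose too (0.55, SE 0.09, adjusted p = 0.00101). The part of endothelial content in the changes of Jam2 and Esam was not tested.

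Among the cytoplasmic linkers, both cingulins were called, in opposite directions. Cgn had 99.6, 99.1 and 95.2 CPM in TSH and 150, 130 and 119 in Empty, without overlap. It fell by 0.44 (SE 0.09, adjusted p = 0.00354). Cgnl1 had 159, 199 and 190 CPM in TSH and 145, 149 and 151 in Empty, and rose by 0.30 (SE 0.09, adjusted p = 0.0411). Ocln was at 23.1, 20.8 and 21.4 CPM in TSH and 26.9, 27.6 and 26.1 in Empty; it fell by 0.30 (SE 0.08, adjusted p = 0.0158). Marveld1 averaged 50.7 ± 3.39 CPM in TSH and 41.6 ± 2.98 in Empty, a rise of 0.29 (SE 0.08, adjusted p = 0.0168). Of the scaffolds, adhesion molecules and polarity genes, those given here were not called: changes were 0.12 for Tjp1, -0.10 for Tjp3, 0.12 for F11r, -0.17 for Pard3 and 0.21 for Crb3, with adjusted p of 0.141 to 0.447.

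The calls of Cldn6 and Cgn held at every setting tried, and the others ended with some single libraries left out. Without TSH replicate 2 or 3 only 3 members were called, and without Empty replicate 1, 5. Cldn9 and Ocln lost their calls without TSH replicate 2 or 3 (adjusted p 0.0621 to 0.0635), and Cldn8 without these or Empty replicate 1 or 2 (0.0531 to 0.0787). For Cgnl1 this held for any Empty library and TSH replicate 2 or 3 (0.0653 to 0.153), for Cldn23 for Empty replicate 1 or 3 and any TSH library (0.051 to 0.148) and for Cldn5 for Empty replicate 2 or any TSH library (0.0512 to 0.106). Jam2 lost it without Empty replicate 1 or 3 or TSH replicate 3 (0.0593 to 0.0751), and Marveld1 without Empty replicate 1 or 3 or TSH replicate 2 (0.0518 to 0.0768). Without both libraries with thymocyte transcripts 0 members rose and 6 fell, and Cgnl1, Cldn23, Cldn5, Jam2 and Marveld1 had adjusted p of 0.0539 to 0.0725. With the muscle score as a covariate Cgnl1 and Cldn23 were not called (0.0808 and 0.0753), and limma on the log2 of FPKM plus 1 did not call Ocln (0.0665). Pard6b, not called otherwise, was called lower without Empty replicate 3 (-0.39, adjusted p = 0.0364) and without both thymocyte libraries (-0.38, 0.0478). Pard3 was called lower without Empty replicate 2 (-0.24, 0.0351).

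TSH-MMI against Empty at 1 week, which shares the Empty libraries, gave 3 members higher and 5 lower of 30 (26.7%), against 21.6% of all genes (13.6% higher, 7.97% lower). Cldn6 had 8.83, 9.46 and 9.35 CPM in TSH-MMI, below all Empty libraries (-0.75, SE 0.15, adjusted p = 0.00423). Cldn9 had 1.59, 0.798 and 1.12 CPM (-1.72, SE 0.34, adjusted p = 0.00436), also below all of them. Cldn8 had 17.8, 29.2 and 24.0 CPM, its highest library still below the lowest Empty one (-0.81, SE 0.20, adjusted p = 0.0205). Cgn fell by 0.54 (SE 0.09, adjusted p = 0.00155), with 90.1, 101 and 84.9 CPM in TSH-MMI. Ocln fell by 0.30 (SE 0.08, adjusted p = 0.0195), with 20.4, 23.5 and 21.6 CPM.

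The members that rose in TSH-MMI were Cldn7, F11r and Marveld1. Cldn7 had 147, 116 and 120 CPM in TSH-MMI, against 104, 107 and 98.6 in Empty (0.31, SE 0.10, adjusted p = 0.0422). F11r had 196, 185 and 193 CPM in TSH-MMI and 171, 166 and 152 in Empty (0.23, SE 0.07, adjusted p = 0.0292). Marveld1 rose by 0.25 (SE 0.08, adjusted p = 0.0338). Cldn5 was 0.42 lower without a call by edgeR (adjusted p = 0.0623), at 7.51, 7.09 and 5.75 CPM in TSH-MMI, while 11 of 14 endothelial markers rose. DESeq2 called Cldn5 lower (-0.43, adjusted p = 0.0405). Cldn3 (-0.05), Cldn4 (-0.09), Cldn1 (-1.17), Tjp1 (-0.14), Tjp3 (-0.08), Pard3 (-0.17) and Crb3 (0.29) had adjusted p of 0.0883 to 0.715 by edgeR. DESeq2 called Cldn1 lower (-1.18, adjusted p = 0.0275), and limma on the log2 of FPKM plus 1 called Crb3 higher (0.36, 0.0291). C cell markers were lower as under TSH alone, 3 of 9 called lower and 1 higher. They scored 5.43 to 5.61 in TSH-MMI and 5.76 to 6.11 in Empty. The parathyroid markers summed to 421 to 1500 CPM in TSH-MMI. The part of either list in the member changes was not tested.

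Cldn6, Cldn9 and Cgn kept their calls here at every setting. Cldn8 lost its call without Empty replicate 1 or 2 or TSH-MMI replicate 3 (adjusted p 0.0537 to 0.0697), and Ocln without Empty replicate 1 or 2 or TSH-MMI replicate 1 or 3 (0.0561 to 0.0666) and by limma on the log2 of FPKM plus 1 (0.135). The call of Cldn7 ended without any library but TSH-MMI replicate 2 (0.0612 to 0.163), and its change was 0.19 without TSH-MMI replicate 1. F11r lost its call without Empty replicate 2 or 3 or TSH-MMI replicate 1 or 3 (0.0504 to 0.105), and Marveld1 without any library but Empty replicate 2 (0.0681 to 0.113). Counts of members called were 4 without Empty replicate 1, 5 without Empty replicate 2 or TSH-MMI replicate 1 and 3 without TSH-MMI replicate 3. Without the libraries with thymocyte transcripts 0 rose and 5 fell, and Cldn7, F11r and Marveld1 had adjusted p of 0.0692 to 0.182. Pard3 was called lower without Empty replicate 2 (-0.25, adjusted p = 0.0355), and Cldn10 without Empty replicate 3 (-0.66, 0.0308).

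TSH-MMI against TSH at 1 week, the test of methimazole added to TSH, called 0 of 30 members, against 0.0177% of all genes. By unadjusted p under 0.05 there were 3, Tjp1, Cldn10 and Cgnl1. DESeq2 called 1, Tjp1, with 148 called over all genes, and limma 0. Tjp1 had 75.6, 74.7 and 69.5 CPM in TSH-MMI and 86.1, 89.3 and 87.9 in TSH, without overlap (-0.26, SE 0.06, adjusted p = 0.251 by edgeR and 0.0163 by DESeq2). The difference of the other members was not detectable with these libraries.

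**Figure D3:**
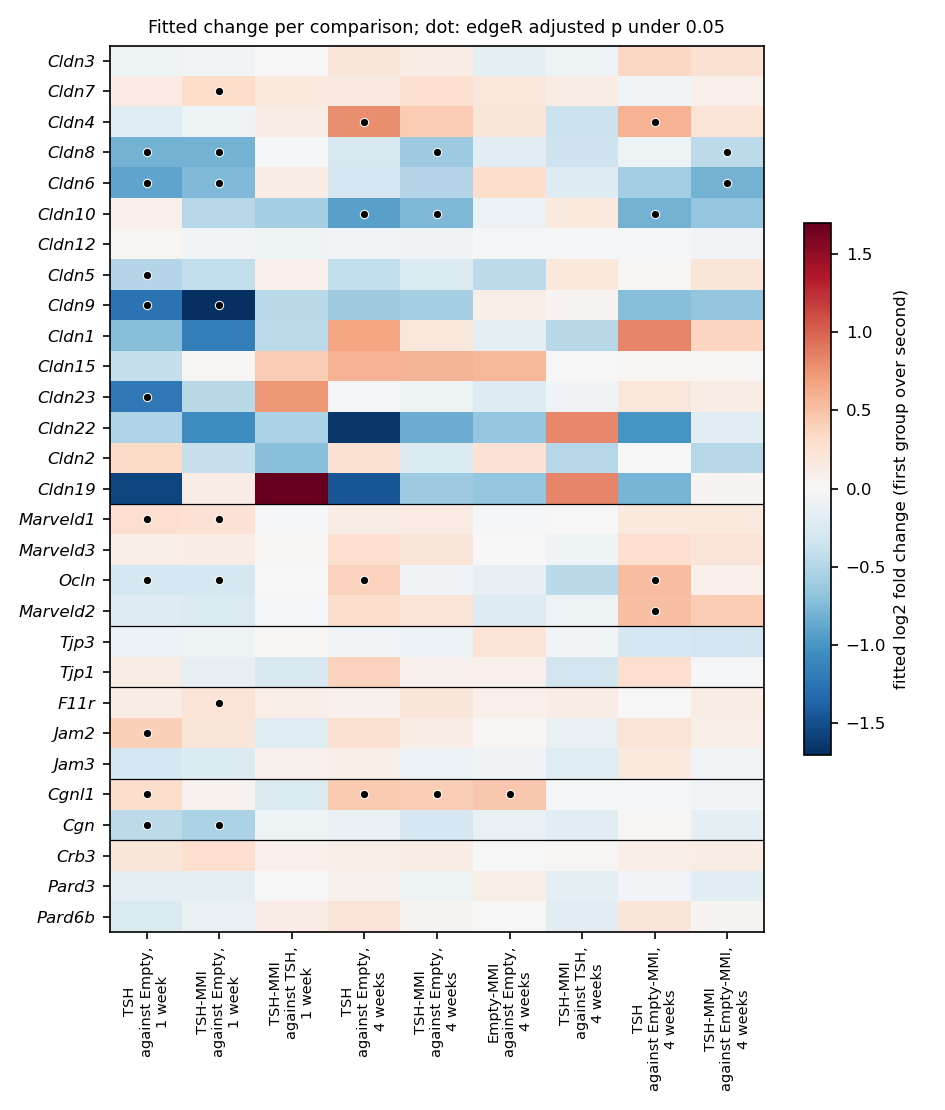
Fitted log2 fold change of tested members (rows, grouped by role) in 9 comparisons (columns, first group over second); red is higher and blue lower in the first group, and a dot marks an edgeR adjusted p under 0.05. Dots at 1 week lie mostly on blue cells of Cldn6, Cldn8, Cldn9, Cgn and Ocln. At 4 weeks Cldn4, Ocln, Cgnl1 and Marveld2 carry them on red cells, and Cldn10, Cldn8 and Cldn6 on blue cells. Columns that share a control group are not independent.

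At 4 weeks Cldn4, Ocln and Cgnl1 were higher under TSH and Cldn10 lower. Against Empty, 3 members rose and 1 fell (13.3%), against 14.1% of all 17355 genes tested (8.52% higher, 5.61% lower). Cldn4, a barrier-forming claudin, had 225, 243 and 243 CPM in TSH, against 127, 134 and 150 in Empty. The groups did not overlap, and it rose by 0.79 (SE 0.16, adjusted p = 0.00618). Its neighbour Cldn3 had 218, 208 and 206 CPM in TSH and 187, 179 and 181 in Empty (0.20, SE 0.11, adjusted p = 0.224), not a call. Cldn10 had 4.19, 3.64 and 3.3 CPM in TSH and 7.55, 5.37 and 8.05 in Empty, and fell by 0.92 (SE 0.22, adjusted p = 0.0146). Cldn7 (0.15), Cldn8 (-0.27), Cldn6 (-0.28), Cldn9 (-0.61) and Cldn5 (-0.42) were not called, with adjusted p of 0.115 to 0.46. The summed claudin FPKM was 343 ± 16.5 in TSH and 302 ± 15.4 in Empty (SD, n = 3 each), and the share of Cldn4 in it 31% ± 1.2 in TSH, 26.2% ± 1.86 in TSH-MMI, 24.5% ± 4.41 in Empty-MMI and 21.8% ± 1.84 in Empty.

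Ocln had 36.8, 36.9 and 37.1 CPM in TSH at 4 weeks and 29.2, 24.1 and 31.1 in Empty, and rose by 0.39 (SE 0.11, adjusted p = 0.0235), without overlap. Cgnl1 had 161, 157 and 164 CPM in TSH and 108, 111 and 137 in Empty, and rose by 0.44 (SE 0.10, adjusted p = 0.00843). Cldn1 was at 5.47, 9.1 and 7.82 CPM in TSH and 4.12, 3.81 and 6.26 in Empty (0.67, SE 0.23, adjusted p = 0.069 by edgeR). DESeq2 called it higher (0.67, adjusted p = 0.0387). Not called were Tjp1 (0.39), Tjp3 (-0.05), F11r (0.07), Cgn (-0.11), Pard3 (0.07) and Crb3 (0.10), with adjusted p of 0.132 to 0.748. Of 6 epithelial markers 4 rose and 13 of 14 endothelial markers rose, with summed levels of 2630 to 3140 and 1630 to 1680 CPM in TSH and 1930 to 2020 and 1040 to 1100 CPM in Empty; their part in the member changes was not tested.

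Cgnl1 kept this call at every setting. With the skeletal muscle score as a covariate Cldn4 and Ocln were not called (adjusted p = 0.0588 and 0.125), nor was Cldn10 (0.0711). Their changes were then 0.7 (SE 0.2), 0.36 (SE 0.13) and -0.96 (SE 0.29), in that order. Ocln lost its call without Empty replicate 2 or any TSH library (0.0614 to 0.0901), and Cldn10 without TSH replicate 2 or 3 (0.0504 and 0.0699) or without both libraries poor in Pth (0.0594). Limma on the log2 of FPKM plus 1 did not call Ocln (0.119), and it called Cldn8 lower (-0.34, adjusted p = 0.0213). The number called was 2 without TSH replicate 2 or 3, and 8 (6 higher, 2 lower) without Empty replicate 3, where Cldn1 and Tjp1 were among those called higher and Cldn9 among those lower. Without both libraries poor in Pth, Cldn1 (1.09, adjusted p = 0.011) and Tjp1 (0.62, 0.0463) were called higher.

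**Figure D4:**
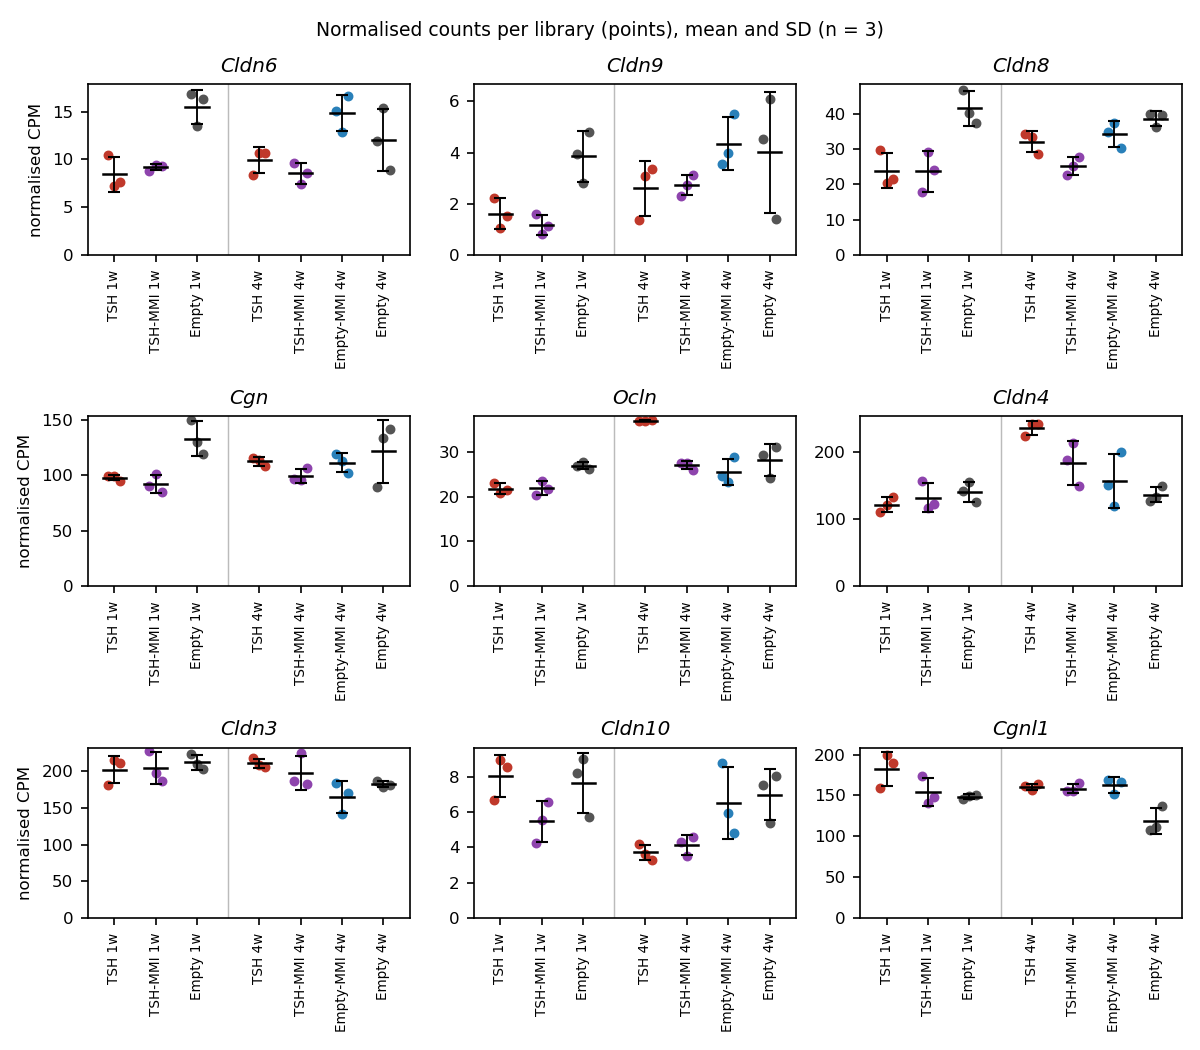
Normalised CPM per library (points, n = 3 per group) with mean and SD for 9 members; the grey line parts 1 week (left) from 4 weeks (right), which were scaled separately. Cldn6, Cldn8, Cldn9, Cgn and Ocln are lower in TSH and TSH-MMI than in Empty at 1 week, and Cldn4 and Ocln are higher in TSH than in Empty at 4 weeks.

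For Cldn4 and Ocln the effect of TSH itself differed between the weeks. The change of the TSH effect, 4 weeks against 1 week, was tested over all 21 libraries and called 2 of 30 members (6.67%), both higher, against 1.35% of 17715 genes (0.418% higher, 0.931% lower). The log2 fold change of Cldn4 was 0.79 at 4 weeks and -0.21 at 1 week, a difference of 1.01 (SE 0.22, adjusted p = 0.0316). Ocln rose at 4 weeks (0.39) and fell at 1 week (-0.30), a difference of 0.70 (SE 0.13, adjusted p = 0.0112). By edgeR Cldn6, Cldn8 and Cldn9 were not called at 4 weeks and were called at 1 week, but their differences of 0.60, 0.53 and 0.65 did not pass the test (adjusted p = 0.227, 0.223 and 0.651). Cldn10 differed by -0.99 (SE 0.32, adjusted p = 0.121 by edgeR), and limma called it on the log2 of FPKM plus 1 (0.0387) and plus 0.1 (0.0418). Marveld2 differed by 0.52 (SE 0.15, adjusted p = 0.08 by edgeR) and was called by DESeq2 (0.0245). The change of the TSH-MMI effect called 0 members, against 0.0169% of all genes, with 4 at an unadjusted p under 0.05, and DESeq2 and limma also called 0. The call of Cldn4 ended, leaving 1 member called, without Empty replicate 1 or 2 or any TSH library of 1 week, and without Empty replicate 1 or any TSH library of 4 weeks (adjusted p 0.0534 to 0.0795). It ended too with the muscle score as a covariate (0.0854) and without both libraries poor in Pth (0.0567). On the log2 of FPKM plus 0.1 limma called neither Cldn4 (0.0514) nor Ocln (0.0518).

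TSH-MMI against Empty at 4 weeks called 1 member higher and 2 lower (10%), against 14.7% of all genes (8.77% higher, 5.97% lower). Cldn8 had 22.6, 25.2 and 27.8 CPM in TSH-MMI and 39.9, 36.4 and 39.8 in Empty, without overlap. It fell by 0.62 (SE 0.11, adjusted p = 0.00195). Cldn10 fell by 0.76 (SE 0.22, adjusted p = 0.0331), with 4.29, 3.48 and 4.58 CPM in TSH-MMI. Cgnl1 rose by 0.42 (SE 0.10, adjusted p = 0.0105), with 155, 155 and 165 CPM. Cldn4 had 188, 214 and 150 CPM in TSH-MMI, with 1 library level with an Empty library (0.43, adjusted p = 0.0991 by edgeR). DESeq2 called it higher (0.44, adjusted p = 0.0495), as did edgeR without TSH-MMI replicate 3 (0.56, 0.0422). Cldn3 (0.12), Cldn7 (0.27), Cldn1 (0.19), Cldn5 (-0.24), Ocln (-0.06), Tjp1 (0.07), Tjp3 (-0.10), F11r (0.20), Cgn (-0.29), Pard3 (-0.08) and Crb3 (0.13) had adjusted p of 0.167 to 0.816. Without Empty replicate 1 Cgn was called lower (-0.47, adjusted p = 0.00548). With the muscle score as a covariate 0 members were called (adjusted p = 0.0946 for Cldn8, 0.141 for Cgnl1, whose change was 0.43, and 0.232 for Cldn10). The changes of Cldn8 and Cldn10 were then -0.53 (SE 0.16) and -0.82 (SE 0.33). Cldn10 also lost its call without Empty replicate 1 or 3 or TSH-MMI replicate 1 or 2 (0.0887 to 0.118) and without both libraries poor in Pth (0.108), where Cldn6 (-0.68, 0.0155) and Cldn9 (-0.96, 0.0166) were called lower.

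Methimazole without TSH left all but 1 member without a call. Empty-MMI against Empty at 4 weeks called Cgnl1 alone of 30 (3.33%), against 1.69% of all genes (0.593% higher, 1.09% lower). It had 169, 152 and 167 CPM in Empty-MMI and 108, 111 and 137 in Empty, and rose by 0.46 (SE 0.10, adjusted p = 0.0336). The changes were -0.15 for Cldn3, 0.20 for Cldn4, 0.19 for Cldn7, -0.18 for Cldn8, -0.17 for Cldn1, -0.44 for Cldn5, -0.14 for Ocln, 0.09 for Tjp1, 0.23 for Tjp3, 0.08 for F11r, -0.13 for Cgn, 0.11 for Pard3 and 0 for Crb3, with adjusted p of 0.252 to 0.99. The call of Cgnl1 ended without any library but Empty replicate 3 (adjusted p 0.0546 to 0.136), when only the compared groups were fitted (0.161) and with the muscle score as a covariate (0.364), where its change was 0.47. The comparisons with Empty at 4 weeks share its 3 libraries, and Cgnl1 changed by 0.44 in TSH, 0.42 in TSH-MMI and 0.46 in Empty-MMI.

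TSH-MMI against TSH at 4 weeks called 0 members, against 0.0173% of all genes, with 3 at an unadjusted p under 0.05, Ocln, Cldn8 and Cldn4. Ocln had 27.5, 27.4 and 25.9 CPM in TSH-MMI and 36.8, 36.9 and 37.1 in TSH, groups far apart (-0.46, SE 0.11, adjusted p = 0.258 by edgeR). DESeq2 called it, alone among the members (adjusted p = 0.0262) and with 82 called over all genes, and limma called 0. Cldn4 was 0.37 lower in TSH-MMI (SE 0.16, adjusted p = 0.591) and Cldn8 0.35 lower (SE 0.11, adjusted p = 0.434).

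Against Empty-MMI, the control that shares methimazole, TSH-MMI called 0 members higher and 2 lower (6.67%), against 4.24% of all genes (3.03% higher, 1.21% lower). Cldn6 had 9.6, 7.45 and 8.57 CPM in TSH-MMI and 15.1, 12.9 and 16.6 in Empty-MMI, without overlap (-0.80, SE 0.18, adjusted p = 0.0263). Cldn8 fell by 0.44 (SE 0.11, adjusted p = 0.0352), with 34.9, 37.5 and 30.3 CPM in Empty-MMI. The call of Cldn6 ended without Empty-MMI replicate 1 or 3 or any TSH-MMI library (adjusted p 0.0617 to 0.0998), and that of Cldn8 without Empty-MMI replicate 1 or 2 or TSH-MMI replicate 1 or 2 (0.0978 to 0.185). Members called numbered 0 without Empty-MMI replicate 1 or TSH-MMI replicate 1 or 2, and 1 without Empty-MMI replicate 2. C cell markers scored 5.12 to 5.3 in TSH-MMI and 5.66 to 6.13 in Empty-MMI. Their part in the lower Cldn6 was not tested. Limma on the log2 of FPKM plus 1 called neither Cldn6 nor Cldn8 (0.0806 and 0.0679). Marveld2, not called by edgeR with all libraries, was called higher by DESeq2 (0.43, adjusted p = 0.0167). Limma on the log2 of FPKM plus 1 called it too (0.45, 0.0326), as did edgeR without Empty-MMI replicate 3 (0.55, 0.0286). Tjp3 was called lower by DESeq2 (-0.33, 0.0188) and by edgeR without Empty-MMI replicate 3 (-0.4, 0.0498).

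TSH against Empty-MMI differs in both vector and drug. It called 3 members higher and 1 lower (13.3%), against 5.65% of all genes (3.84% higher, 1.81% lower). Ocln rose by 0.53 (SE 0.11, adjusted p = 0.0102), with 24.5, 23.2 and 28.8 CPM in Empty-MMI. Marveld2, which seals the corners where 3 cells meet, had 18.4, 18.5 and 18.1 CPM in TSH and 11.7, 12.1 and 14.7 in Empty-MMI, and rose by 0.51 (SE 0.12, adjusted p = 0.0226). Its gene lies 43238 bases from Ocln on chromosome 13. Cldn4 rose by 0.59 (SE 0.16, adjusted p = 0.0499), with 151, 120 and 200 CPM in Empty-MMI, and Cldn10 fell by 0.81 (SE 0.22, adjusted p = 0.048). Ocln lost its call without Empty-MMI replicate 2 (0.0518), and Marveld2 without Empty-MMI replicate 1 or 2 or any TSH library (0.0681 to 0.0946). For Cldn4 and Cldn10 leaving out any of these 5 libraries did so (0.0977 to 0.169 and 0.0845 to 0.21), and 0 to 2 members were then called. Of 16 settings 2 kept the call of Cldn4, which ended with RLE size factors (0.053), with no filter on low counts (0.055), with the muscle score as a covariate (0.0565), with only the compared groups (0.066) and by limma on the log2 of FPKM plus 1 (0.123). Limma on that scale did not call Marveld2 either (0.0733), and Cldn10 was not called with the muscle score (0.0659) or with only the compared groups (0.0533). Without both libraries poor in Pth, Ocln and Cldn1 were called higher and 0 members lower, and Cldn1 was 1.01 higher (adjusted p = 0.0204).

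Some tested members were called in none of the comparisons by edgeR with all libraries. Cldn12 varied little, with log2 fold changes of -0.08 to 0.03 over 9 comparisons between groups and an adjusted p of at least 0.741. Marveld3 (-0.07 to 0.28), Jam3 (-0.30 to 0.17) and Pard6b (-0.24 to 0.22) had adjusted p of at least 0.0868, 0.198 and 0.232. Cldn1 came nearest to a call, in TSH against Empty-MMI at 4 weeks (0.83, SE 0.23, adjusted p = 0.0505). DESeq2 called it there (0.83, adjusted p = 0.0148). The sparse claudins spread widely, with changes of -0.40 to 0.59 for Cldn15, -0.71 to 0.32 for Cldn2, -1.66 to 0.82 for Cldn22 and -1.56 to 1.69 for Cldn19, none called.

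Beyond the 39 genes, 31 other tight junction and polarity genes were counted, of which 30 were tested. At 1 week 8 rose and 2 fell in TSH against Empty, and 10 rose and 2 fell in TSH-MMI against Empty, where 14.8% of all genes rose and 9.34% fell in TSH, and 13.6% rose and 7.97% fell in TSH-MMI. Medians of the list were 0.06 and 0.01. Ildr1, an angulin that brings tricellulin to cell corners, rose by 0.87 in TSH (SE 0.15, adjusted p = 0.00255) and by 0.90 in TSH-MMI (SE 0.15, adjusted p = 0.00274). The angulin Lsr rose by 0.34 in TSH (SE 0.09, adjusted p = 0.0185) and by 0.37 in TSH-MMI (SE 0.09, adjusted p = 0.0129). The adhesion molecule Igsf5 rose by 0.74 in TSH (SE 0.16, adjusted p = 0.00892) and by 0.79 in TSH-MMI (SE 0.16, adjusted p = 0.00812). Amotl2, of the angiomotin family, rose by 0.63 in TSH (SE 0.10, adjusted p = 0.000972) and by 0.36 in TSH-MMI (SE 0.10, adjusted p = 0.0239). The atypical protein kinase C gene Prkcz fell by 0.47 in TSH (SE 0.09, adjusted p = 0.00266) and by 0.36 in TSH-MMI (SE 0.09, adjusted p = 0.0135).

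At 4 weeks 5 of these genes rose and 2 fell in TSH against Empty, and 5 rose and 4 fell in TSH-MMI against Empty, with medians of 0.16 and 0.14 and -0.03 over all genes tested in both. Of all genes 8.52% rose and 5.61% fell in TSH, and 8.77% and 5.97% in TSH-MMI. Esam rose by 0.49 in TSH (SE 0.09, adjusted p = 0.00396) and by 0.47 in TSH-MMI (SE 0.09, adjusted p = 0.00421). Arhgef2, an exchange factor held at junctions by cingulin, rose by 0.46 in TSH (SE 0.10, adjusted p = 0.00764) and by 0.38 in TSH-MMI (SE 0.10, adjusted p = 0.0208). Ybx3, a transcription factor bound by ZO-1, fell by 0.72 in TSH (SE 0.16, adjusted p = 0.00893) and by 0.65 in TSH-MMI (SE 0.16, adjusted p = 0.0139). Amotl1 fell by 0.42 in TSH (SE 0.13, adjusted p = 0.0436) and by 0.79 in TSH-MMI (SE 0.13, adjusted p = 0.00119). In TSH-MMI Ildr1 and Igsf5 rose by 0.67 and 0.59 (SE 0.13 and 0.12, adjusted p = 0.00405 and 0.00538). Amot fell by 0.60 in Empty-MMI against Empty (SE 0.12, adjusted p = 0.0294), the 1 gene of the list called there. In TSH-MMI against Empty it fell by 0.42 (SE 0.12, adjusted p = 0.0304).

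Of the adherens junction and desmosome list all 17 genes were tested. In TSH 5 rose and 1 fell at 1 week (35.3% called, against 24.1% of all genes) and 4 rose and 0 fell at 4 weeks (23.5%, against 14.1%), each against Empty. In TSH-MMI 2 rose at 1 week (11.8%, against 21.6% of all genes) and 5 at 4 weeks (29.4%, against 14.7%), and 0 fell. In the comparisons that include Empty-MMI edgeR called 0 of them. Of all genes it called 1.69% in Empty-MMI against Empty. Against Empty-MMI it called 4.24% in TSH-MMI and 5.65% in TSH, so 0 of 17 is near these shares. At 4 weeks the median of the list against Empty was 0.24 for TSH and 0.22 for TSH-MMI, and 0.10 and 0.05 at 1 week. The catenins Ctnnb1 and Ctnna1 rose by 0.30 and 0.26 in TSH at 1 week (SE 0.06 and 0.07, adjusted p = 0.00362 and 0.0143) and by 0.35 and 0.43 at 4 weeks (SE 0.08 each, adjusted p = 0.0142 and 0.00441). E-cadherin (Cdh1) rose by 0.35 in TSH at 4 weeks (SE 0.10, adjusted p = 0.0278) and plakoglobin (Jup) by 0.59 (SE 0.11, adjusted p = 0.00416). Perp, a desmosome protein, fell by 0.41 in TSH at 1 week (SE 0.07, adjusted p = 0.00155), and its TSH effect differed by 0.65 between the weeks (SE 0.12, adjusted p = 0.00995).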

How the data were processed

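Libraries were made from thyroid RNA with a stranded poly(A) kit, per the labels' protocols. Tools named in the submitters' processing notes are HISAT2 2.1.0, FastQC 0.11.7, StringTie 2.1.3b and Trimmomatic 0.38, with the build mm10. The annotation, the counting step and its use of strand are not stated in the labels or headers. Per the file headers, the authors deposited read counts, FPKM and TPM, in 1 table per week. The deposited FPKM was used for levels between genes and for limma, and the deposited TPM was left out.

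The count tests used edgeR 4.0.16 under R 4.3.3 (filterByExpr, TMM scaling, robust quasi-likelihood F test, Benjamini-Hochberg adjusted p under 0.05 over all genes tested). The 9 libraries of 1 week were fitted together, likewise the 12 of 4 weeks and all 21 for changes between weeks. Marker scores used a prior count of 2. Alternatives were DESeq2 1.42.0, limma 3.58.1 on log2(FPKM + 1) and log2(FPKM + 0.1), other scaling and filters, covariates and left-out libraries. The removal of both libraries poor in Pth was added after seeing the data. The edgeR step was tested on simulated data.

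The members and lists were chosen with earlier results of these data known. Named were all called members, Cldn1, Cldn3, Cldn4, Cldn5, Cldn7, Cldn8, Ocln, Tjp1, Tjp3, F11r, Cgn, Pard3 and Crb3 against Empty, and up to 4 called genes per list with the smallest p. For space some of the last were left out. Cldn6, Cldn9, Cldn10 and Marveld2 are also given in some, but not all, comparisons where they were not called. Chi-square per degree of freedom between libraries of a group was 11.1 to 150, so none was taken for a duplicate. Values of 1 member, which is in the counts, are not reported here.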

Additional observations from a re-analysis of the deposited data

Results flagged for a closer look

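The effect of TSH on Cldn4 and Ocln differed between the weeks by the test of the difference itself over 21 libraries. The difference of log2 fold changes, 4 weeks minus 1 week, was 1.01 for Cldn4 (SE 0.22, adjusted p = 0.0316) and 0.70 for Ocln (SE 0.13, adjusted p = 0.0112). In TSH at 4 weeks Cldn4 averaged 237 ± 10.8 CPM and Ocln 36.9 ± 0.173 CPM, against 137 ± 11.9 and 28.1 ± 3.6 in Empty (SD, n = 3 each). The call of Cldn4 ended at 13 of 23 settings, with an adjusted p of up to 0.0854, and that of Ocln at 1 (0.0518).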

How the results depend on the processing

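Of 34 calls of members over all comparisons 6 held at every setting tried, 28 ended at 1 setting or more and 0 reversed. DESeq2 ended 0 of the 34, limma on log2(FPKM + 1) 8, on log2(FPKM + 0.1) 9, the muscle score as a covariate 13, RLE size factors 2, fitting only the compared groups 4, and testing without a filter or without Tg, mitochondrial and ribosomal RNA genes 1 each; the causes were not tested. Scaling moved the median of all genes by less than 0.1.

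Members called by DESeq2 were 1 in TSH-MMI against TSH at each week, 4 in TSH-MMI against Empty-MMI and 9 in TSH against Empty-MMI. Over all genes DESeq2 called 148 and 82 in TSH-MMI against TSH at 1 and 4 weeks, and edgeR 3 each. Against Empty-MMI it called 1220 genes in TSH-MMI and 1544 in TSH, and edgeR 736 and 981. Limma on log2(FPKM + 1) called 0 in Empty-MMI against Empty, and either limma scale called 1 in TSH-MMI against Empty-MMI and 2 in TSH against Empty-MMI; on log2(FPKM + 0.1) the change of the TSH effect had 1, Cldn10, with the calls of Cldn4 and Ocln ended (adjusted p = 0.0514 and 0.0518). With the muscle score as a covariate 0 were called in TSH-MMI against Empty at 4 weeks, 0 in Empty-MMI against Empty, 1 in TSH-MMI against Empty-MMI, 2 in TSH against Empty-MMI and 1 in the change of the TSH effect. Fitting only the compared groups gave 0 in Empty-MMI against Empty and 1 in TSH-MMI against Empty-MMI. Without the libraries with thymocyte transcripts 6 were called in TSH and 5 in TSH-MMI against Empty at 1 week. Without the libraries poor in Pth there were 1 in TSH-MMI against Empty-MMI, 2 in TSH against Empty-MMI and 1 in the change of the TSH effect.

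With single libraries left out, members called ranged from 3 to 8 in TSH and 3 to 7 in TSH-MMI against Empty at 1 week, and at 4 weeks from 2 to 8 in TSH against Empty, 0 to 1 in Empty-MMI against Empty, 0 to 3 in TSH-MMI against Empty-MMI, 0 to 4 in TSH against Empty-MMI and 1 to 2 in the change of the TSH effect. With the replicate number as a block 7 calls ended, leaving 5 in TSH-MMI against Empty at 1 week, 1 in TSH-MMI against Empty-MMI and 1 in the change of the TSH effect. Libraries share only the number: correlations of same-numbered deviations were -0.246 to 0.267 at 1 week and -0.251 to 0.256 at 4 weeks.

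Precision is limited by 3 libraries a group and, for Cldn2, Cldn19 and Cldn22, by at most 48 counts in any library.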
